A study of Rattus norvegicus with 48 samples.

Results

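AM21 is a locked nucleic acid (LNA) oligonucleotide, a short synthetic strand with stiffened sugars, antisense to the microRNA (miRNA) miR-21. The comparison described here is of livers from AM21-treated rats with livers from control rats 24 h after surgery. It was chosen by the labels for treatment and time and covers 18 of 48 liver samples, with all 143 miRNAs of the deposited table. The animals were male Sprague-Dawley rats aged 8 to 14 weeks, pair-fed for 6 to 8 weeks a liquid diet with 36% of calories from ethanol (EtOH) or from carbohydrate (CHO), then subjected to 70% partial hepatectomy (PHx), which starts regrowth of the remaining liver. AM21 at 7.5 mg/kg was injected into the peritoneum 72 h before surgery and again right after it (CHO.24hr.AM21 and EtOH.24hr.AM21, 3 animals each). The 12 control animals were 3 untreated and 3 saline-injected rats per diet (CHO.24hr.untreated, EtOH.24hr.untreated, CHO.24hr.saline and EtOH.24hr.saline), of which the saline-injected rats received 1 mL. By its labels the series has no group given an LNA oligonucleotide of another sequence. Exposure to an LNA and inhibition of miR-21 therefore cannot be told apart here. The question was which miRNAs other than miR-21 differ in regenerating liver when miR-21 is inhibited, in either diet.

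A miRNA is a short RNA that guides a silencing complex to messenger RNAs, which it recognises mainly through its seed, bases 2 to 8 from the 5′ end. miR-21 is induced in many injured and growing tissues, among them the regenerating liver. An antisense LNA binds its miRNA tightly and blocks it. A hybridisation assay that then reads little of this miRNA cannot tell a degraded miRNA from one that is still held by the oligonucleotide. The assay used here, NanoString nCounter, counts a coloured probe for each miRNA without amplification.

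The miRNAs on which the results turn are shown first. Their mature sequences were taken from RefSeq (rat build GRCr8) and are written 5′ to 3′ with the seed in capitals.
miR-21: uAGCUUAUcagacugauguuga
miR-340-5p: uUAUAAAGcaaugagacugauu
miR-361: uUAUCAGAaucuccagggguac
miR-1224: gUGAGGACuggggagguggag
miR-199a-5p: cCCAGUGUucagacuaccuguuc
miR-144: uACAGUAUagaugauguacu
miR-451: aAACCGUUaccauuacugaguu

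No 2 of these seeds were the same, and 0 of the other 123 miRNAs with a sequence held the seed of miR-21. In GRCr8 miR-21 lies at chr10:71902653-71902674 on the minus strand. miR-340-5p lies at chr10:34894668-34894689 on the plus strand within the bounds of Rnf130, and its partner arm miR-340-3p at chr10:34894710-34894732 in the same hairpin. miR-361 lies at chrX:82438506-82438527 on the minus strand within Chm, and miR-1224 at chr11:93811355-93811375 on the minus strand within Vwa5b2. miR-199a-5p, entered for Mir199a2, lies at chr13:77116255-77116277 on the plus strand within Dnm3. miR-144 and miR-451 lie near each other on the plus strand, at chr10:63459446-63459465 and chr10:63459585-63459606.

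Values were log2 CPM, which are probe counts scaled by TMM (the total of the animal times a factor that evens out the bulk of the miRNAs), and 1 unit is a doubling. At 24 h an animal had 92286 to 201170 counts in all, with a median of 168320 in AM21-treated and 161436 in control animals. miR-122, which marks hepatocytes, made up 55.8% to 68.8% of all counts with AM21 and 56.0% to 64.9% in controls, more than any other miRNA in every animal. CHO.24hr.AM21 replicates 1 and 3 stood apart, with a miR-122 share of 68.0% and 68.8% and TMM factors of 0.797 and 0.819, against 0.888 to 1.03 in the controls. The median miRNA had a median of 89.5 counts, and counting error weighs most on the 37 miRNAs whose median was below 50. All p-values below come from limma fits over the 143 miRNAs with the diet as a covariate, adjusted by the Benjamini-Hochberg method unless said otherwise, and a miRNA was called at an adjusted p under 0.05.

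Few miRNAs other than miR-21 were called at 24 h in AM21-treated animals. Against the 12 controls, 4 of 143 miRNAs were called, which is 2.80% of those tested. miR-21, miR-340-5p and miR-361 fell, and miR-1224, a miRNA made from a short intron by splicing, rose. At an unadjusted p under 0.05 by limma there were 17 miRNAs (11.9%), 6 higher and 11 lower. A difference that was not called is therefore not shown to be absent. The median difference over all miRNAs was -0.01 on the log2 scale, with 70 miRNAs higher and 73 lower.

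miR-21 itself checks the treatment. In the 6 AM21-treated animals its level was 6.59 at the lowest, 7.22 at the median and 7.49 at the highest, in log2 CPM. In the 12 controls it was 14.72, 15.20 and 15.76 in the same order. The groups were far apart, since in counts the AM21-treated animals had 15 to 27 and the controls 3113 to 9934. The difference was -8.12 ± 0.14 (SE) on the log2 scale, with a 95% interval of -8.42 to -7.82 and an adjusted p of 7.98e-23 by limma, a ratio of about 278-fold. In controls miR-21 ranked 141 or 142 of 143 from the bottom in each animal, and with AM21 it ranked 1 to 7. The remaining 15 to 27 counts were therefore among the lowest in the table, and their share of unspecific signal was not tested.

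miR-340-5p was the only other miRNA whose 6 AM21-treated animals all lay outside the range of the 12 controls. Such a separation was seen for 2 miRNAs of 143, which is 1.40%, and both were lower with AM21. Its level was 6.99 to 7.92 with a median of 7.41 log2 CPM in AM21-treated animals and 8.63 to 9.20 with a median of 8.82 in controls. In counts this was 20 to 42 against 43 to 119. The difference was -1.41 ± 0.12 (SE) with a 95% interval of -1.66 to -1.17 and an adjusted p of 3.40e-09 by limma, and the measured level was 2.67-fold lower. With AM21 miR-340-5p ranked 1 to 30 of 143 from the bottom. Its 20 to 42 counts overlapped in part with the 15 to 27 of miR-21 in these animals. How far unspecific signal limits this fold was not tested. The highest AM21-treated animal, at 7.92, was in the EtOH group and the lowest, at 6.99, in the CHO group. An exact permutation test within diets, two-sided, gave p = 0.000142 for miR-340-5p and for miR-21, the smallest value that the 7056 relabellings allow, or 0.0101 after adjustment.

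The other arm of the same hairpin, miR-340-3p, was measured by its own probe. It stood at 7.24 to 8.01 log2 CPM with AM21 and 7.71 to 8.38 in controls, and these ranges overlapped. Its difference was -0.32 ± 0.12 (SE), with an adjusted p of 0.243 by limma and a 95% interval of -0.57 to -0.07. The interval of miR-340-3p and that of miR-340-5p did not overlap, but the difference between the arms was not tested. Both were low in counts (20 to 54 for miR-340-3p). In controls miR-340-3p already ranked 5 to 34 from the bottom, with a median of 41 counts. There miR-340-5p ranked 50 to 71, with a median of 69 counts. How far low signal limits a fall of miR-340-3p was not tested.

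miR-361 differed by less. Its level was 8.84 to 9.20 log2 CPM with a median of 9.03 in AM21-treated animals and 9.14 to 9.87 with a median of 9.51 in controls. The AM21-treated animals reached from below the control range to its low end and overlapped it only slightly. Their median, at 9.03, lay below the lowest control, at 9.14. The fall was -0.49 ± 0.12 (SE) on the log2 scale (adjusted p = 0.0336, limma), or 1.40-fold.

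miR-1224 was the only miRNA called higher. In AM21-treated animals it stood at 11.35 to 12.29 log2 CPM with a median of 11.68, and in controls at 11.15 to 11.55 with a median of 11.29. The highest values were 12.06 and 12.29, both of CHO-fed animals given AM21, and the lowest AM21-treated animal, EtOH-fed, lay inside the control range. The rise was 0.45 ± 0.12 (SE) with an adjusted p of 0.0348 by limma, or 1.36-fold. Both highest values are of the samples whose miR-122 share and TMM factor stood apart. Without these samples miR-1224 was at 0.25 ± 0.11 (SE, adjusted p = 0.481, limma), and with scaling by the total without miR-122 and miR-21 at 0.39 (adjusted p = 0.164, limma).

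Calls for miR-361 and miR-1224 were close to the threshold. With each of the 18 animals left out in turn, miR-361 stayed called in 12 cases and miR-1224 in 9, with adjusted p up to 0.101 and 0.158 by limma. By the exact permutation test both had an adjusted p of 0.0659. Without CHO.24hr.AM21 replicates 1 and 3, miR-361 was at -0.42 ± 0.15 (SE, adjusted p = 0.326, limma). With the replicate number as a block, miR-1224 had an adjusted p of 0.0545. Both directions held in all these fits.

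Just outside the threshold were miR-199a-5p, a miRNA of mesenchymal cells such as stellate cells, at -0.44 ± 0.14 (SE), and miR-146a, a feedback regulator of inflammatory signalling, at 0.40 ± 0.13 (SE), both with an adjusted p of 0.135 by limma. miR-146a reached 11.33 to 11.97 log2 CPM in the EtOH-fed AM21-treated animals and 11.08 to 11.88 in the CHO-fed ones, against 10.88 to 11.50 in controls. After these came miR-539 at -0.35, miR-132 at -0.52, miR-674-3p at -0.32 and miR-101b at -0.29, with adjusted p from 0.243 to 0.354 in limma. None of these 6 was called. Without CHO.24hr.AM21 replicates 1 and 3, miR-146a was at 0.58 ± 0.14 (SE) and was called (adjusted p = 0.0184, limma).

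**Figure D1:**
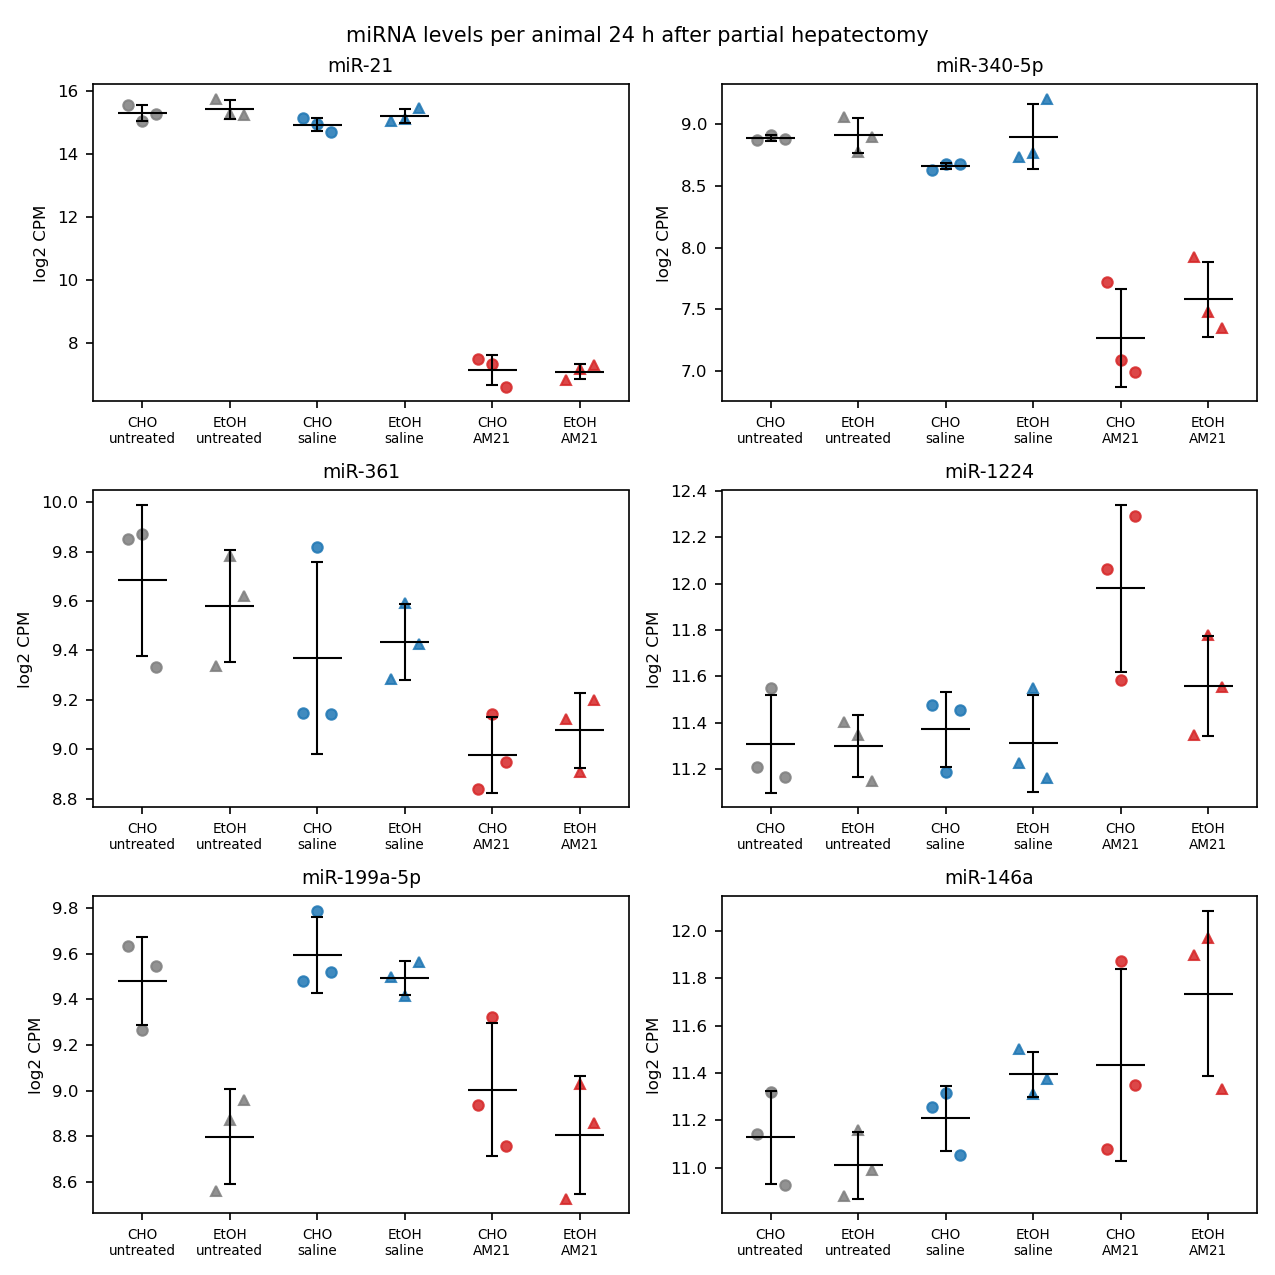
Levels at 24 h in log2 CPM (y axis) of 6 miRNAs in each animal, by diet and treatment (x axis, 3 animals a group, circles CHO and triangles EtOH), with group means and SD as bars. All 6 AM21-treated animals sit below all 12 controls for miR-21 (6.59 to 7.49 against 14.72 to 15.76) and for miR-340-5p (6.99 to 7.92 against 8.63 to 9.20), and the ranges of the other 4 overlap.

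The sequences printed above share stretches with miR-21, the strand that AM21 was designed to pair with, and this was measured for each miRNA. The sequence of AM21 itself is not given in the sources used here. RefSeq held a mature sequence for 124 of the 143 miRNAs, and for the 123 other than miR-21 the longest unbroken run of bases also found in miR-21 was taken. The 4 miRNAs with a run of 7 or more are written below with this run in capitals, each above miR-21 with the same run in capitals.
miR-340-5p: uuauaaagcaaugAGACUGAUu
miR-21 with the run of miR-340-5p: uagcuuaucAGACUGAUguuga
miR-361: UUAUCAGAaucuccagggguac
miR-21 with the run of miR-361: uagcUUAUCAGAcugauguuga
miR-199a-5p: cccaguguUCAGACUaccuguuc
miR-21 with the run of miR-199a-5p: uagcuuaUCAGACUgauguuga
miR-499: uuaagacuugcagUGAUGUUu
miR-21 with the run of miR-499: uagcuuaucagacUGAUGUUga

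miR-340-5p and miR-361 had the longest runs, of 8 bases, and both were called lower at 24 h. In miR-340-5p the run covers bases 14 to 21, away from the seed, and bases 10 to 17 of miR-21. In miR-361 it covers bases 1 to 8, the seed included, and bases 5 to 12 of miR-21. miR-199a-5p and miR-499 had runs of 7 bases, at bases 8 to 14 and 14 to 20 of miR-21. miR-199a-5p was lower without a call, at -0.44, and miR-499 was not lower, at 0.09 ± 0.15 (SE, adjusted p = 0.756, limma). The 4 therefore did not all move the same way.

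The other 119 miRNAs had runs of 3 to 6 bases. Their median difference at 24 h was 0.01 on the log2 scale, from -0.75 to 0.45, with 56 of them lower and 1 called, miR-1224, which has a run of 5. By length the medians were -0.02 for 30 miRNAs with 3 bases, 0.03 for 52 with 4, 0.00 for 31 with 5 and 0.04 for 6 with 6. These 6 include miR-144, at -0.70 (adjusted p = 0.442, limma). The number of miRNAs with long runs is small, and whether the shared bases have a part in the lower levels was not tested.

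**Figure D2:**
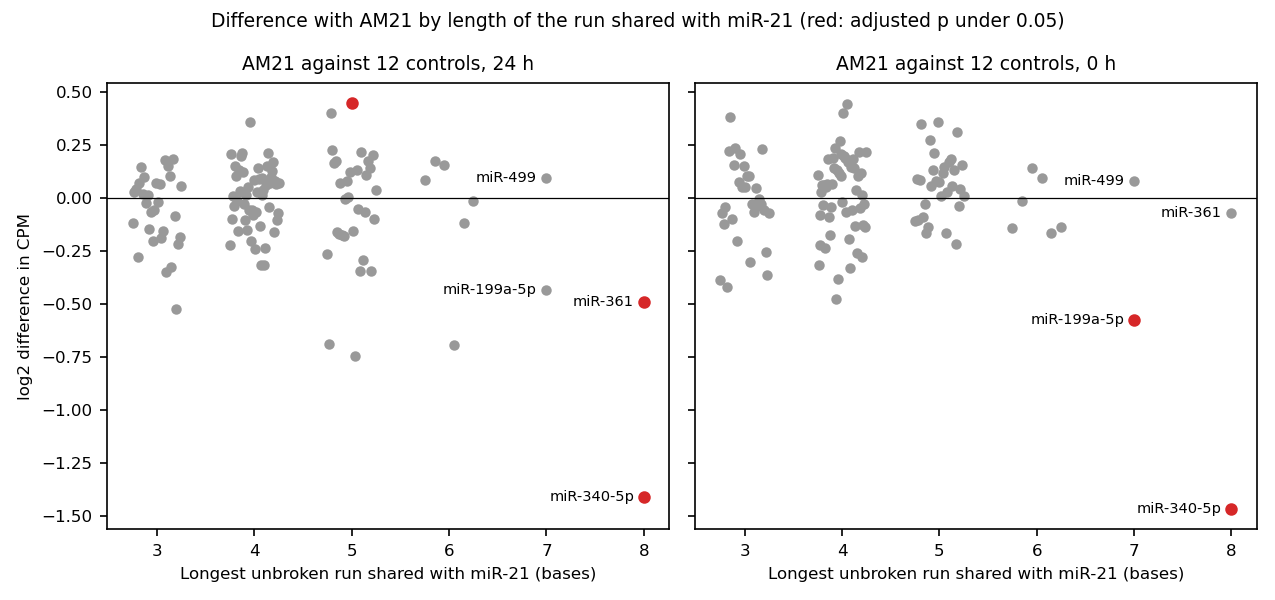
Log2 difference in CPM between 6 AM21-treated and 12 control animals (y axis) against the longest run of bases shared with miR-21 (x axis, points spread sideways for clarity), at 24 h on the left and at 0 h on the right, for 123 miRNAs without miR-21. Called miRNAs are red. The 2 miRNAs with 8 shared bases lie at -1.41 and -0.49 at 24 h, and of these miR-361 lies at -0.07 at 0 h.

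Because the controls were of 2 kinds, AM21 was also set against each alone, 6 against 6 animals. The AM21-treated animals are the same in both, so the values are given side by side. miR-21 and miR-340-5p fell against either control, and each other call was seen against one kind of control only. Against untreated animals 5 miRNAs were called, all lower, which is 3.50%. Against saline-treated animals 3 were called, all lower, which is 2.10%.

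miR-21 fell by 8.26 on the log2 scale against untreated animals and by 7.98 against saline-treated animals. miR-340-5p fell by 1.47 (adjusted p = 1.16e-06) and by 1.36 (adjusted p = 9.75e-06), both by limma. Neither overlapped its control group in either comparison.

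miR-361 fell by 0.60 against untreated animals (adjusted p = 0.00834, limma), with no overlap. Against saline-treated animals its difference was -0.37 ± 0.13 (SE) with an adjusted p of 0.258 by limma. Saline-treated animals had levels of 9.14 to 9.82 log2 CPM and untreated animals 9.33 to 9.87, and between these controls miR-361 differed by -0.23 ± 0.15 (SE, adjusted p = 0.767, limma). miR-1224 was higher by 0.47 and 0.43 with adjusted p of 0.101 and 0.258 in limma, so that its call was seen only with the 12 controls together.

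miR-199a-5p was called against the saline-treated animals instead. It fell by 0.64 against saline-treated animals (adjusted p = 0.00715, limma), with 8.52 to 9.32 log2 CPM in AM21-treated and 9.42 to 9.79 in saline-treated animals and no overlap. Against untreated animals the difference was -0.23 ± 0.15 (SE, adjusted p = 0.457, limma). The untreated animals were split by diet, with 9.26 to 9.63 in the CHO-fed and 8.56 to 8.96 in the EtOH-fed ones. The other arm, miR-199a-3p, was at -0.33 against saline-treated animals (adjusted p = 0.375, limma) and at -0.06 against untreated animals.

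**Figure D3:**
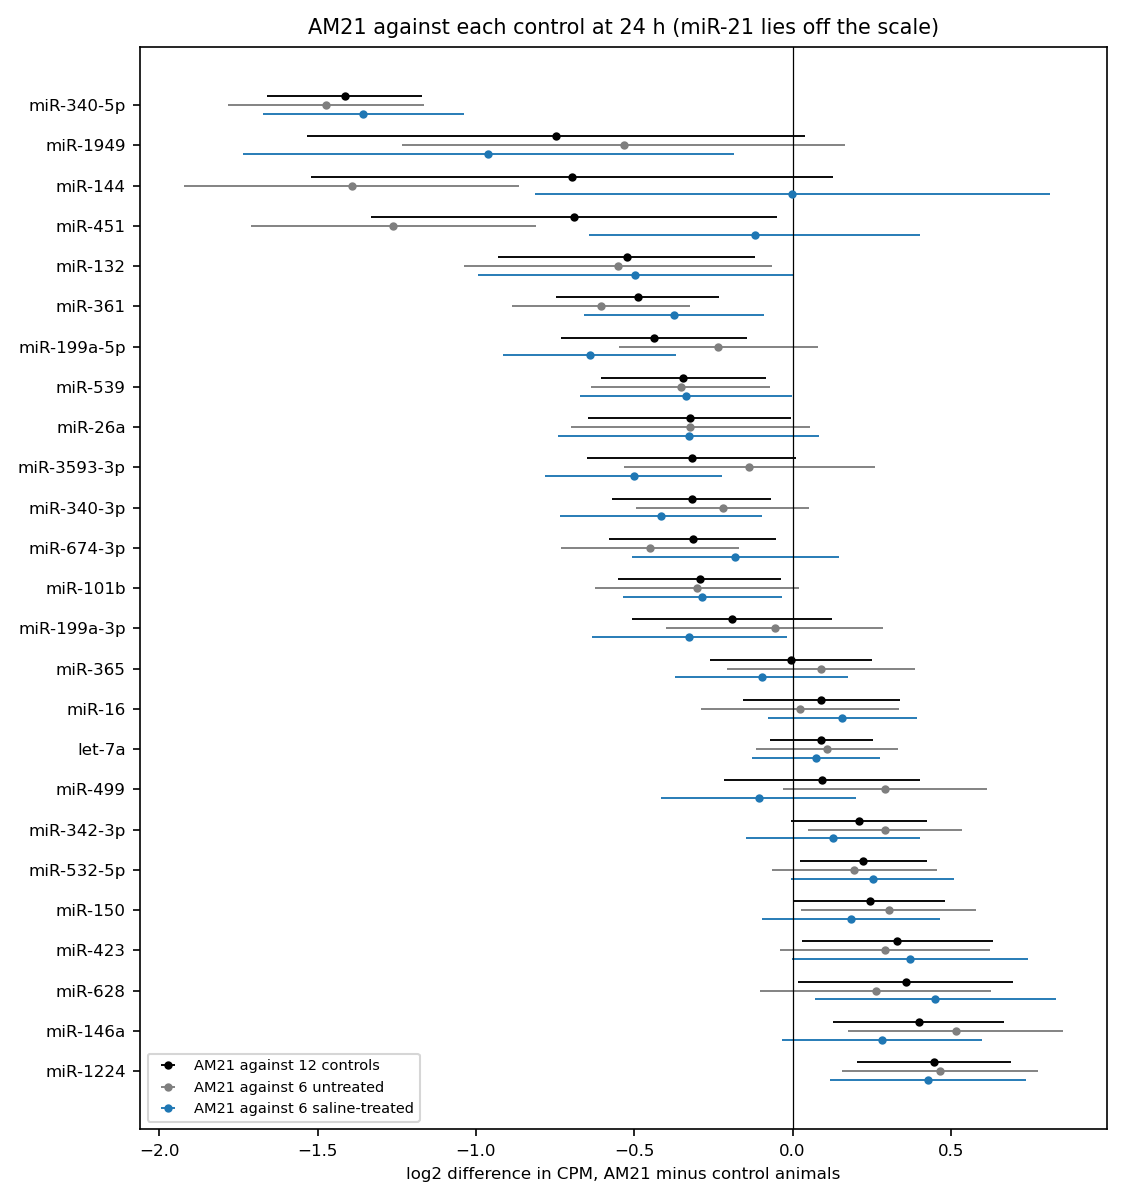
Log2 differences in CPM, AM21 minus control animals (x axis), with 95% intervals for 25 miRNAs (y axis) against all 12 controls, the 6 untreated and the 6 saline-treated animals. miR-340-5p lies at -1.41, -1.47 and -1.36, while miR-144 and miR-451 lie at -1.39 and -1.26 against untreated animals and at -0.00 and -0.12 against saline-treated animals.

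The remaining calls against untreated animals were miR-144 and miR-451, which are made together in developing red blood cells and mark blood in a tissue. miR-451 fell by 1.26 (adjusted p = 8.30e-04) and miR-144 by 1.39 (adjusted p = 0.0013), both by limma. Against saline-treated animals miR-451 was at -0.12 ± 0.25 (SE, adjusted p = 0.881) and miR-144 at -0.00 ± 0.38 (SE, adjusted p = 0.998), again by limma. The level of miR-451 was 7.88 to 9.16 log2 CPM with a median of 8.43 in AM21-treated animals, 7.62 to 9.44 with a median of 8.68 in saline-treated animals and 8.71 to 10.86 with a median of 9.86 in untreated animals. The highest 3 values belonged to EtOH-fed untreated animals, at 10.11, 10.24 and 10.86. miR-144 ran in the same order, with medians of 9.29, 9.37 and 10.80 log2 CPM.

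The controls were also set against each other. Between saline-treated and untreated animals, 0 of 143 miRNAs were called by limma (0%), with 10 at an unadjusted p under 0.05. The 2 smallest p-values were those of miR-451, at -1.14 ± 0.29 (SE), and miR-144, at -1.39 ± 0.37 (SE), both with an adjusted p of 0.130. Of the 3 red blood cell miRNAs listed, 2 were measured, and their summed level was 752 to 1699 CPM with AM21, 407 to 2106 with saline and 1195 to 4360 without treatment. The third, miR-486, was not in the table. The part of blood content in these calls was not tested.

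**Figure D4:**
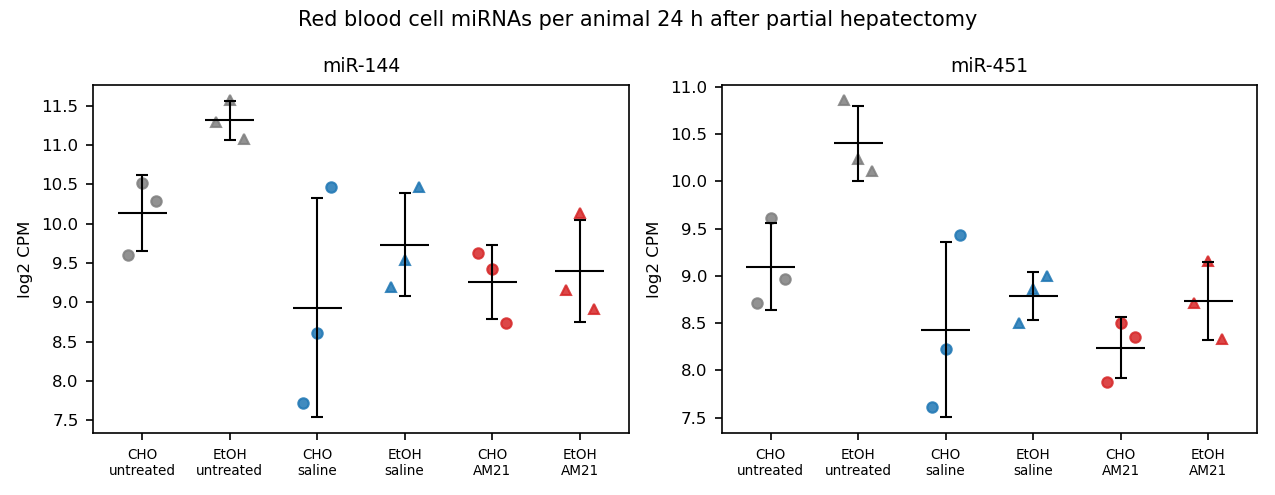
Levels at 24 h in log2 CPM (y axis) of miR-144 and miR-451 in each animal, by diet and treatment (x axis, 3 animals a group), with group means and SD. AM21-treated and saline-treated animals cover similar ranges (medians of 8.43 and 8.68 for miR-451), and EtOH-fed untreated animals are highest, at 10.11 to 10.86 for miR-451.

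Markers of other cell types were not called against the 12 controls, where 2.80% of all miRNAs were, so that for lists this short a count of 0 says little. In whole liver, fewer cells of a type and less RNA per cell cannot be told apart. The 3 hepatocyte miRNAs (miR-122, miR-192 and miR-194) were at 0.13, 0.03 and 0.03 against the 12 controls, with 0 called. Of 5 leukocyte miRNAs 4 were measured and 0 called, with a median of 0.19 and a summed level of 2958 to 3931 CPM with AM21, 2512 to 3462 without treatment and 2582 to 3965 with saline. The endothelial miRNA miR-126 was at 0.18 (adjusted p = 0.461, limma). Of 5 mesenchymal miRNAs 4 were measured and 0 called, with miR-143 at 0.20, miR-145 at 0.04 miR-199a-5p at -0.44 and miR-199a-3p at -0.19, and their summed level was 13099 to 18789 CPM with AM21, 13750 to 20287 without treatment and 14997 to 19115 with saline. In this list miR-199a-5p was called against saline-treated animals alone and at 0 h.

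Lists of miRNAs for the cell types of the liver, which the study took from earlier work, are described against the 12 controls and beside the 2.80% called of all miRNAs. Of 14 measured miRNAs that are higher in activated stellate cells, the collagen-producing cells of the liver, 1 was called lower, miR-21, and the median of the others was 0.04 against -0.01 for all 143 miRNAs. miR-132, at -0.52, and miR-199a-5p were the lowest of these others. Of 21 measured miRNAs that are lower in activated stellate cells 0 were called, and their median was 0.07. Of 25 measured sinusoidal endothelial miRNAs 0 were called, with a median of 0.03. Of 5 measured miRNAs that changed in isolated mouse Kupffer cells after PHx 0 were called, with a median of -0.07. Against saline-treated animals alone, and again at 0 h, miR-199a-5p was also called, which gives 2 calls of the 14 and 1 of the 25, as it stands in both lists.

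Families and clusters of miRNAs were described in the same way. The 8 members of the let-7 family, which restrains proliferation in many tissues, lay between -0.10 and 0.15, with 7 higher and 0 called. The 7 probes of the miR-17/92 group, which promotes growth, lay between -0.18 and 0.13, and the 5 of the miR-15/16 family, which slows the cell cycle, between -0.24 and 0.09. The 3 miRNAs of the miR-29 family, which target collagens, lay between 0.04 and 0.21, and the 5 of the miR-30 family between -0.13 and 0.17. None of these miRNAs was called, and at 2.80% over all miRNAs this says nothing particular about the families. Of the 4 inflammatory miRNAs listed, 3 were measured and 0 called, with miR-146b at -0.17 and miR-223 at -0.07 beside miR-146a.

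The study listed 5 miRNAs by their correlation with miR-21 in treated rats, a measure other than the differences from controls given here. As the list came from the same animals, the direction of its members is not independent evidence. Of these, miR-340-5p was called lower and miR-1224 higher. let-7a was at 0.09 (95% interval -0.07 to 0.25), miR-365 at -0.00 (-0.26 to 0.25), and miR-146a as given above. At 0 h all 5 had an unadjusted p under 0.05 by limma against the 12 controls, 4 higher and 1 lower, among 12 of all 143 miRNAs. There let-7a was at 0.39 against untreated and 0.41 against saline-treated animals, and miR-365 at 0.45 and 0.18. None of these values of let-7a and miR-365 was called (adjusted p from 0.391 to 0.833, limma). miR-16, which is abundant in red blood cells, was at 0.09 (-0.16 to 0.34) at 24 h.

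The effect of AM21 was then compared between diets. In CHO-fed animals 3 miRNAs were called (2.10%) and in EtOH-fed animals 2 (1.40%). miR-21 fell by 8.0 and 8.24 and miR-340-5p by 1.51 and 1.32 in CHO-fed and EtOH-fed animals. miR-1224 was higher by 0.64 in CHO-fed animals (adjusted p = 0.0277, limma), and its difference between diets was -0.39 ± 0.22 (SE, adjusted p = 0.657, limma). The CHO-fed AM21 group includes replicates 1 and 3, whose miR-122 share and TMM factor stood apart. Without them miR-1224 was at 0.25 ± 0.11 (SE, adjusted p = 0.481, limma) over both diets, and the difference between diets was not fitted. miR-132 was lower by 0.90 in EtOH-fed animals without a call (adjusted p = 0.119, limma). A test of the difference itself, the interaction of AM21 with diet, called 0 of 143 miRNAs by limma (0%), and its lowest adjusted p was 0.525. Before adjustment 7 miRNAs had a p under 0.05. For miR-340-5p the interaction was 0.18, with a 95% interval of -0.31 to 0.68.

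Samples were also collected at 0 h, the baseline of the study, and 6 from AM21-treated rats (CHO.0hr.AM21 and EtOH.0hr.AM21) were set against 12 from untreated and saline-treated controls of that time. The sources used here do not say whether they came from the same rats as the 24 h samples. As the second AM21 injection came right after surgery, 0 h samples follow the first one only and 24 h samples follow both. Time, surgery and number of injections therefore cannot be told apart between 0 and 24 h. Among the 0 h controls 2 stood apart in miR-21. EtOH.0hr.saline replicates 1 and 2 had 11.12 and 9.65 log2 CPM of it, against 12.97 to 15.00 in the other 10 controls and 6.65 to 7.76 with AM21. Their levels of miR-340-5p, 8.43 and 8.66, lay within the range of the other controls.

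At 0 h 3 miRNAs were called, all lower, which is 2.10%. miR-21 was at -6.19 ± 0.59 (SE, adjusted p = 1.65e-07), miR-340-5p at -1.47 ± 0.28 (SE, adjusted p = 0.00262) and miR-199a-5p at -0.57 ± 0.12 (SE, adjusted p = 0.00556), all by limma. The levels of miR-340-5p were 6.04 to 8.37 log2 CPM with AM21 and 7.73 to 9.48 in controls, and these overlapped. miR-361 was at -0.07 ± 0.11 (SE, adjusted p = 0.852), and miR-340-3p at 0.14 ± 0.12 (SE, adjusted p = 0.756), both by limma. miR-1224 and miR-146a were at 0.35 and 0.36 without a call, and miR-144 and miR-451 at -0.14 and -0.17. Against untreated animals alone, which leaves out the animals that stood apart, miR-21 fell by 7.15 and was the only call. miR-340-5p was then at -1.53 ± 0.37 (SE, adjusted p = 0.0811, limma) and miR-199a-5p at -0.44 ± 0.13 (SE, adjusted p = 0.190, limma). Against saline-treated animals alone 4 miRNAs were called lower, which were miR-21, miR-340-5p at -1.41, miR-199a-5p at -0.71 and miR-199a-3p at -0.59, with adjusted p of 0.0128 for the last and 0.00868 for miR-199a-5p by limma.

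The difference between the AM21 effects at 24 and 0 h was also tested, with all samples taken as independent. This test covers time, surgery and the second injection together. It called 0 of 143 miRNAs by limma (0%), and its lowest adjusted p was 0.659. Before adjustment 4 miRNAs had a p under 0.05. For miR-361 it was -0.42 ± 0.16 (SE, adjusted p = 0.659, limma) and for miR-340-5p 0.05 ± 0.32 (SE). For miR-21 it was -1.93 ± 0.66 (SE), or -1.11 ± 0.32 (SE) with untreated animals as the only controls. With AM21, mean miR-21 in CHO-fed and EtOH-fed animals was 7.43 and 7.24 log2 CPM at 0 h and 7.13 and 7.08 at 24 h. With saline it was 13.51 and 11.62 at 0 h and 14.94 and 15.22 at 24 h. The miR-21 value thus includes the change in controls, and stronger inhibition at 24 h was not tested. With differences between same-numbered samples of the 2 times, as if each pair were 1 rat, 0 miRNAs were again called by limma. The lowest adjusted p was then 0.383, and before adjustment 8 miRNAs had a p under 0.05. None of these was called, so that the call of miR-361 at 24 h and its value at 0 h are not shown to differ.

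**Figure D5:**
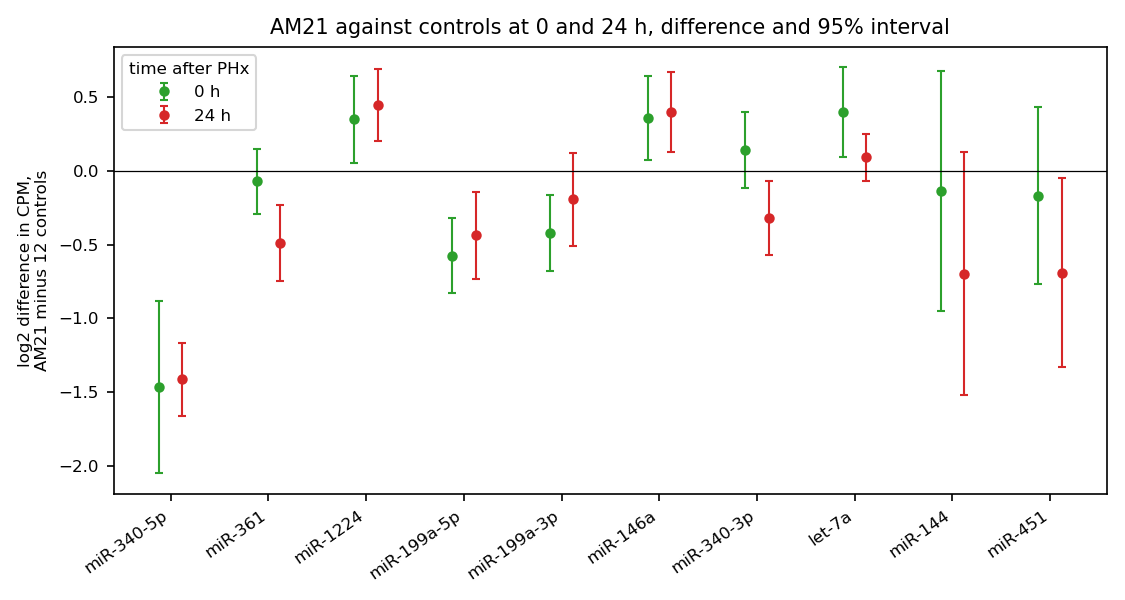
Log2 difference in CPM between 6 AM21-treated and 12 control animals (y axis) with 95% intervals for 10 miRNAs (x axis), at 0 h in green and at 24 h in red. miR-340-5p lies at -1.47 and -1.41, and miR-361 at -0.07 and -0.49. The AM21-treated animals at 24 h had been injected again after surgery.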

How the data were processed

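NanoString nCounter counts of 420 rat miRNAs in whole-liver RNA were scaled by the authors by TMM and transformed by voom, and they deposited log2 CPM for 143 miRNAs. The rule behind these 143 is not given in the sources used here. Depth was read by undoing the transformation with the voom pseudocount of 0.5, and all counts lay within 0.001 of a whole number. The deposited log2 CPM were fitted with limma 3.58.1 in R 4.3.3 (lmFit and eBayes) on the animals compared, with diet as covariate, and adjusted by the Benjamini-Hochberg method over 143 miRNAs. Fits were also run on simulated counts with independent noise, and no result above rests on that run. It did not model unspecific signal or the samples that stood apart. Named miRNAs were miR-21, those the study names for AM21, all called in the 3 main comparisons, those with the smallest p until 20 were named, those sharing 7 or more bases with miR-21, and up to 4 of each list. The members and lists were chosen with earlier results of these data known. Each group held 3 animals, and p-values cover the spread between animals. Figures used matplotlib 3.10.9 in Python 3.11.15. Alternatives were other scalings (RLE size factors, the 100 highest probes, the total without miR-122 and miR-21), at least 50 counts in at least 3 animals, a pseudocount of 5, voom weights, other eBayes settings, the replicate number as block, no diet term, a depth covariate, pooled group means, an exact permutation and leaving out each animal.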

Additional observations from a re-analysis of the deposited data

How the results depend on the processing

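The comparison with 12 controls had 34 alternatives, which include the fits with either kind of control alone and with each animal left out. miR-21 and miR-340-5p were called in all 34, by -8.26 to -7.85 and -1.50 to -1.28. miR-361 was called in 23 of them and miR-1224 in 17. The count of 4 calls became 2 with log10 total count as covariate and 2 by exact permutation, and both were miR-21 and miR-340-5p. With each animal left out it was 2 to 5. It was 2 without CHO.24hr.untreated replicate 1, CHO.24hr.saline replicate 2, EtOH.24hr.AM21 replicate 2, CHO.24hr.AM21 replicate 3 or EtOH.24hr.untreated replicate 3. Without CHO.24hr.AM21 replicate 1, miR-361 (adjusted p = 0.0977) and miR-1224 (0.112) were not called and miR-146a was (0.0449, limma), and without EtOH.24hr.untreated replicate 1, miR-199a-5p was (0.0263). miR-1224 also lost its call without EtOH.24hr.saline replicates 1 (0.0553) or 3 (0.0586) and CHO.24hr.untreated replicate 3 (0.0645). Scaling by the 100 highest probes gave 10 calls against untreated animals in place of 5, which include those 5. There the left-out range was 5 to 6, against saline-treated animals 3 to 4, and for both interactions 0 in every alternative. Saline against untreated gave 2 calls without CHO.24hr.saline replicate 3, a range of 0 to 2. At 0 h the count of 3 was 1 with untreated animals alone, 4 with saline-treated animals alone, and 3 to 4 when leaving out each animal. These alternatives at 0 h, the pairing of 0 and 24 h and the fit without CHO.24hr.AM21 replicates 1 and 3 were chosen after seeing the data. miR-365, near 0, changed sign with RLE size factors (0.033), the 100 highest probes (0.096), untreated animals alone (0.089), without CHO.24hr.AM21 replicates 1 and 3 (0.037) and when leaving out single animals (range -0.064 to 0.056), and miR-499 with saline alone (-0.11). The cause of these changes was not tested.

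Animals with the same number deviated together in every pair only for EtOH-fed untreated and AM21-treated animals (0.20, 0.17 and 0.23), so the numbers were not taken as pairs. Between 0 and 24 h, 12 of 18 same-numbered pairs of one diet and treatment correlated over 0.1 (range -0.15 to 0.42). With the replicate block, 3 miRNAs were called against the 12 controls, 7 against untreated and 4 against saline-treated animals. The block lost miR-1224 (adjusted p = 0.0545) in the first, gained miR-146a (0.0444) and miR-674-3p (0.0409) in the second and miR-3593-3p (0.0328) in the third, by limma. Low counts limit miR-340-5p and the 37 miRNAs under 50 counts most.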
